A study of Mus musculus with 15 samples.

Results

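The induced pluripotent stem (iPS) cell line IP14D-101 was compared with the embryonic stem (ES) cell line CL11, which uses 6 of the 15 expression arrays of the series, 3 from each line. The IP14D-101 arrays are labelled with the genetic background C57x129S2, and the CL11 arrays with B6D2F1. The other arrays, used here only beside these, come from the iPS lines IP14D-1 and IP20D-3 and from mouse embryonic fibroblasts (MEF), 3 each and all labelled B6D2F1. All ES and iPS cells grew on MEF feeders treated with mitomycin C, in medium with LIF and either serum or a serum replacement; the labels do not say which line had which medium. The series describes the 3 arrays of a group as biological replicates. Each group is 1 line, so cell type, line, genetic background and medium cannot be told apart, and the MEF arrays are not of the background of IP14D-101. The factors used for reprogramming are not given in the sources used here.

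Mouse ES cells are derived from the inner cell mass of the blastocyst, and iPS cells from somatic cells in which a set of transcription factors restarts the same network around Pou5f1, Sox2 and Nanog. Both kinds self-renew in LIF, while signalling through FGF and ERK, Nodal and Wnt balances self-renewal against exit towards the epiblast and other fates. Imprinted genes, which are expressed from the maternal or the paternal copy according to DNA methylation set in the germ line, are known to vary between pluripotent lines.

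The values are array signals on a linear scale, brought to a common trimmed mean and given below as log2 of the signal plus 16, so that a difference of 1 is 2-fold. Of 45101 probe sets, 45037 were no controls and were tested, and 18193 genes were each represented by the brightest of their probe sets. A gene counts as above background where the mean of a line's arrays exceeds 11.04, the 95th percentile of 39 olfactory receptor genes, and a fold is given as "at least" where the dimmer line lay below that level. Markers were checked as summed signal in units of 1000. All 10 pluripotency markers were above background in both lines, with a sum of 3976 to 4316 in IP14D-101 and 3707 to 3938 in CL11, against 7.41 to 11.1 in MEF. Of 9 fibroblast markers, 7 were below background in both lines, Col1a1, Col3a1, Postn, Pdgfrb, Lum, Dcn and Prrx1, and their sum was 10.3 to 12.2 in IP14D-101 and 8.61 to 12.4 in CL11, against 4319 to 4749 in MEF. All 8 primitive endoderm markers were above background in both lines, and their sum was lower in every IP14D-101 array, at 147 to 164, than in any CL11 array, at 199 to 207. In RNA from whole cultures, fewer cells of a type and less RNA per cell cannot be told apart. Replicate 3 of IP14D-101 had the lowest mean correlation with its own group of all 15 arrays, 0.919, and the median SD of a gene over the 3 arrays was 0.167 in IP14D-101 and 0.124 in CL11.

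Between the lines, 1773 of 18193 genes (9.75%) differed at an adjusted p under 0.05 in limma with Benjamini-Hochberg adjustment over all probe sets. Counted by probe set, 3234 of 45037 (7.18%) differed. Of the genes, 942 (5.18% of all genes) were higher in IP14D-101 and 831 (4.57%) were lower. The arrays of the lines did not overlap for 5134 genes (28.2%), among them 1757 of the 1773. Most differences were small. Among the called genes with both lines above background the median size was 0.55 on the log2 scale, and 76 rose and 130 fell by at least 2-fold. A further 38 genes rose from below background and 50 fell to below it. Most called genes had both lines above background, 870 of the higher and 743 of the lower ones. In each array of these lines 62.5% to 65.4% of genes were above it. The share called over all genes, 9.75%, is thus a low yardstick for lists of expressed genes. This applies to the list shares below, most of all where every member was above background. The share of called genes that were higher, 53.1%, depended on the scaling: it was 71.6% with arrays scaled to one median, which moved the median difference of all genes from 0.00 to 0.12, and 19.8% with no scaling, which moved it to -0.15. The same test called 5130 genes (28.2%) between IP14D-101 and the mean of the other iPS lines, a comparison that shares its 3 arrays; 14.9% of genes were higher in IP14D-101 there and 13.3% lower.

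**Figure D1:**
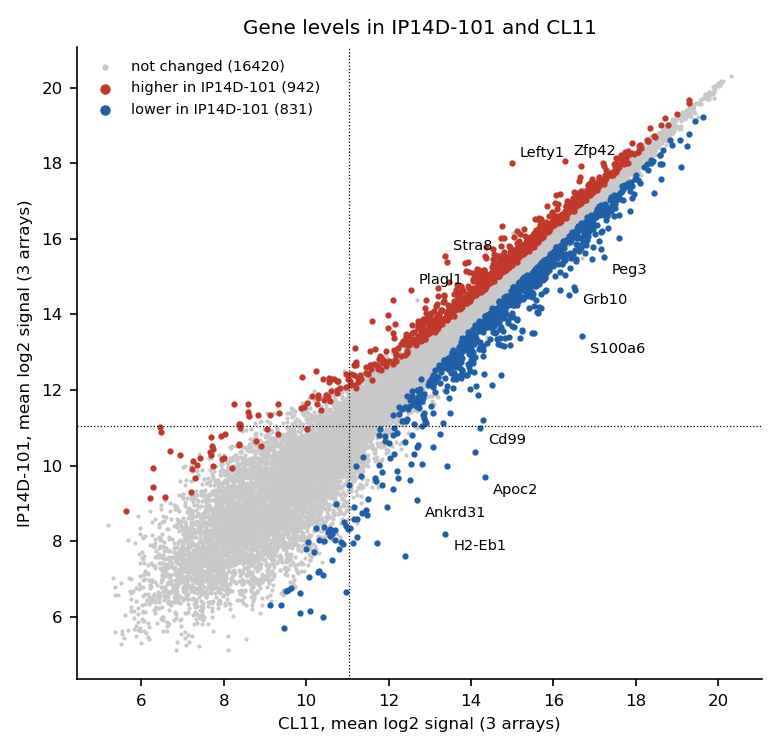
Mean log2 signal of 18193 genes in CL11 (x axis) and IP14D-101 (y axis), 3 arrays each; red points are the 942 genes called higher and blue points the 831 called lower, and dotted lines mark the background level of 11.04. Lefty1 lies farthest above the diagonal and S100a6 farthest below it among labelled genes with both lines above background.

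Pou5f1, Sox2, Nanog, Klf4 and Myc did not pass the test. Pou5f1, the central pluripotency factor, read 18.84, 18.79 and 18.99 in IP14D-101 and 18.89, 18.99 and 18.91 in CL11, a difference of -0.06 ± 0.23 (SE, n = 3 arrays a line; adjusted p = 0.93). The difference was 0.26 ± 0.12 for Sox2 (adjusted p = 0.21), -0.10 ± 0.13 for Nanog (0.743), 0.02 ± 0.10 for Klf4 (0.945) and 0.02 ± 0.18 for Myc (0.977). Of 32 measured genes of the pluripotency network 1 rose and 2 fell (9.38%, with 9.75% of all genes called), and their median difference was -0.05. All 32 were above background in at least 1 of the lines, unlike all genes, so these shares are not like for like. The riser was Zfp42 (Rex1), a zinc finger gene that marks naive cells, at 18.12, 18.09 and 17.99 in IP14D-101 and 16.46, 16.19 and 16.19 in CL11. That is a rise of 1.78 ± 0.37 (3.44-fold, adjusted p = 0.00575). The adjusted p was 0.0604 without a variance trend, and Zfp42 was also 1.92 higher than in the other iPS lines (adjusted p = 0.00024). Tbx3, a T-box factor that supports self-renewal, fell by 0.74 (adjusted p = 0.00065), and Tet2, a dioxygenase that oxidises methylcytosine, fell by 0.63 (0.0126; 0.0577 with median scaling and 0.0796 without a variance trend); 1 gene rather than 2 fell without IP14D-101 replicate 3 or CL11 replicate 2. Genes silent in MEF have a wide spread at background there, which enters their error. An alternative limma fit, added after the data were seen, held only the 12 ES and iPS arrays. Its adjusted p was 0.0649 for Sox2, 0.465 for Nanog and 0.732 for Pou5f1. For Sox2 and Nanog the arrays of the lines did not overlap, as for 28.2% of all genes. In that fit 4 members fell rather than 2. The additional ones were Nr0b1 (Dax1), a nuclear receptor of the naive network, with 16.62, 16.53 and 16.70 against 17.38, 17.48 and 17.45 (-0.82 ± 0.07; adjusted p = 2.0e-06, and 0.498 with the MEF arrays in the fit), and Dppa2, with a difference of -0.57 ± 0.08 (0.00018, and 0.293).

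The largest measured rise of the comparison was in Lefty1, which encodes a secreted inhibitor of Nodal signalling. It read 17.93, 17.81 and 18.26 in IP14D-101 and 15.01, 15.03 and 14.92 in CL11. The difference was 3.01 ± 0.11, or 8.04-fold (adjusted p = 5.9e-12). IP14D-1 and IP20D-3 were between them, at means of 17.32 and 16.75, and IP14D-101 was 0.96 above those lines (adjusted p = 6.6e-07). Its paralogue Lefty2 read 14.39, 14.43 and 14.36 against 12.80, 12.63 and 12.63, which is 1.70 higher with no overlap. The error of that difference was 0.61 with the MEF arrays in the fit (adjusted p = 0.104) and 0.13 without them (4.0e-07). The ligand Nodal (-0.08, adjusted p = 0.8), its co-receptor Tdgf1 (0.16, 0.511) and the transcriptional partner Foxh1 (0.01, 0.969) did not pass the test. Of 16 measured genes of the pathway 3 rose and 0 fell in limma (18.8%, with 9.75% of all genes called). All 16 were above background in at least 1 of the lines, so these shares are not like for like. At an unadjusted p under 0.05 the counts were 6 and 0. The other risers were the receptor Acvr2b (0.55) and Skil (0.36), a repressor of SMAD activity.

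The next largest rises, chosen among called genes without overlap, had diverse functions. Slc27a2, a transporter and acyl-CoA synthetase for very long-chain fatty acids, rose by 2.27 ± 0.35, and Fxyd6, a regulator of the sodium-potassium pump, by 2.24 ± 0.53 (adjusted p = 0.0131; 0.0516 without CL11 replicate 2 and 0.0799 without a variance trend). Stra8, the retinoic acid-induced gene of meiotic entry, read 15.62, 15.57 and 15.46 in IP14D-101 and 13.60, 13.33 and 13.15 in CL11, a rise of 2.19 ± 0.24 (4.56-fold; adjusted p = 1.4e-05). IP14D-1 and IP20D-3 were near CL11, at means of 12.98 and 12.65, and IP14D-101 stood 2.73 above those lines (6.2e-08). Of 24 measured germ line genes 16.7% were called, with 9.75% of all genes. The 2 that rose were Stra8 and the piRNA pathway gene Tdrd12 (1.17), and 2 fell. The count that fell was 0 without any 1 of the CL11 arrays and 7 with only the ES and iPS arrays in the fit. Sfrp2, a secreted Wnt antagonist, rose by 2.01, Trh, the precursor of thyrotropin-releasing hormone, by 1.96, the carbohydrate kinase gene Fggy by 1.92 and Epdr1 by 1.67. The call of Fggy was lost without CL11 replicate 2 (adjusted p = 0.101), without IP14D-101 replicate 1 (0.0592), with no scaling (0.0534) and without a variance trend (0.0584).

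S100a6, a small calcium-binding protein, had the largest measured fall. It read 13.23, 13.43 and 13.65 in IP14D-101 and 16.72, 16.67 and 16.67 in CL11, so it fell by 3.26 on the log2 scale (SE 0.11; 9.55-fold; adjusted p = 5.9e-12). The other iPS lines were again between, at 15.77 and 14.56, and MEF were at 19.33. Emp1, an epithelial membrane protein, fell by 3.08 (SE 0.58), but its replicates spread from 8.88 to 12.70 in IP14D-101 and only replicate 2 of them lay below background. A2m, the protease inhibitor alpha-2-macroglobulin, fell by 2.38, the laminin chain gene Lama3 by 2.29, the membrane repair gene Myof by 2.08 and the semaphorin and VEGF co-receptor gene Nrp2 by 2.03. Plet1, a surface protein of the trophoblast, fell by 2.33 in its brightest probe set, while its other probe sets gave 0.25 and -1.91. Fmr1nb fell by 1.97, the acyl-CoA synthetase gene Acsbg3 by 1.94 (-0.47 in another probe set) and Cd68, a lysosomal glycoprotein of macrophages, by 1.91. The macrophage markers C1qa, C1qb, Lyz2 and Ptprc were below background in both lines, and the sum of the 5 macrophage markers was 4.87 to 5.50 in IP14D-101 and 5.57 to 7.06 in CL11, against 65.9 to 68.7 in MEF. Their part in the fall of Cd68 was not tested.

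**Figure D2:**
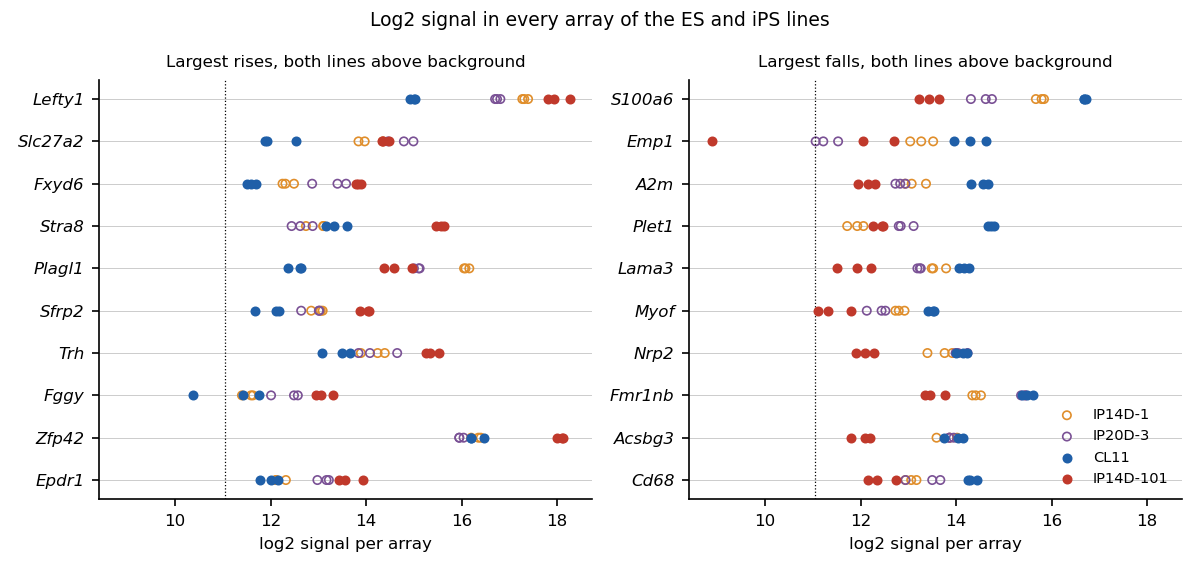
Log2 signal (x axis) of the 10 largest rises and the 10 largest falls, 1 point per array, for IP14D-101, CL11 and the other iPS lines, with the background level dotted. Genes were chosen so that the 3 red points of IP14D-101 lie clear of the 3 blue points of CL11. For Stra8 and Zfp42 the other iPS lines sit near CL11.

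Several genes with signal above background in CL11 read at background in IP14D-101. Of those given next, Apoc2, Ankrd31, Pla2g7, Ceacam20 and H2-Eb1 had no other probe set to set beside this. The other probe set of Slfn9 was below background in both lines. Apoc2, the cofactor of lipoprotein lipase, read 8.35, 10.60 and 10.16 against 14.72, 14.25 and 14, at least 9.76-fold lower (adjusted p = 7.7e-07). Cd99, a surface glycoprotein, read 10.73, 11.56 and 10.70 against 14.18, 14.09 and 14.36, at least 7.99-fold lower (2.0e-09), and its other probe sets moved alike (-3.16 and -2.33). In the other iPS lines Apoc2 was at means of 12.98 and 13.64, and Cd99 at 14.83 and 15.15. Ankrd31, a meiotic recombination gene, read 9.28, 9.26 and 8.74 against 13.02, 12.62 and 12.40 (at least 3.12-fold lower; 7.6e-06) and was at 13.77 and 13.38 in the other iPS lines. Falls of at least 4.48-fold for Anxa8, an annexin, 4.16-fold for Slfn9, a schlafen gene, 3.42-fold for Pla2g7, which inactivates platelet-activating factor, and 3.0-fold for Ceacam20 complete the set of 8 with H2-Eb1, described with the antigen presentation genes. Another probe set of Anxa8 gave -1.60. The call of Ceacam20 was lost without CL11 replicate 1 (adjusted p = 0.0739) or CL11 replicate 2 (0.057). Others were at background in CL11. Nestin (Nes), an intermediate filament of neural progenitors, rose at least 2.76-fold in its brightest probe set, while another gave -0.09. The others rose at least 2.41-fold (Syt13), 2.39-fold (Car3), 2.37-fold (Fgd6), 2.33-fold (Nin), 2.32-fold (Rab25), 2.29-fold (Mthfd2l) and 2.23-fold (Pgap4). Other probe sets gave a difference of 0.16 for Fgd6, 0.46 for Nin and 0.28 and 1.34 for Mthfd2l. Of these, Rab25 is a small GTPase of epithelial trafficking and Nin a centrosomal protein.

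Imprinted genes moved in both directions. Of 48 measured outside the Dlk1-Dio3 cluster, 9 rose and 6 fell (31.3%, with 9.75% of all genes called), with a median of 0.09. Of the 48, 37 were above background in at least 1 of the lines, so these shares are not quite like for like. Peg3, a paternally expressed zinc finger gene, read 15.70, 15.67 and 15.19 in IP14D-101 and 17.08, 17.24 and 17.34 in CL11. It fell by 1.70 (SE 0.12; 3.25-fold; adjusted p = 4.8e-08), and its other probe sets gave -2.12 and -2.29. Its neighbour Usp29 differed in the same direction (-2.95), with both lines below background. Grb10, an adaptor that dampens insulin and IGF receptor signalling, read 14.58, 14.83 and 14.79 against 16.38, 16.59 and 16.50. It fell by 1.76 (SE 0.08; 3.39-fold; adjusted p = 3.3e-10), and its other probe sets gave -1.72 and -0.85. The next gene, Ddc, which encodes the decarboxylase of dopamine and serotonin synthesis, fell by 1.04. The count of imprinted genes that rose was 5 with no scaling. IP14D-101 was the lowest of the pluripotent lines for Peg3 and Grb10, 2.03 and 2.36 below the mean of the other iPS lines (adjusted p = 3.5e-10 and 3.5e-13).

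Plagl1, an imprinted zinc finger gene that restrains growth, moved the other way. It read 14.58, 14.97 and 14.37 in IP14D-101 and 12.63, 12.62 and 12.37 in CL11, a rise of 2.10 ± 0.12 (4.29-fold; adjusted p = 4.5e-09), and the other iPS lines were higher still, at 16.10 and 15.07. Cdkn1c, the maternally expressed inhibitor of cyclin-dependent kinases, rose by 1.41 ± 0.19, Mest, a paternally expressed hydrolase gene, by 1.01 ± 0.09 and Nnat, which encodes neuronatin, by 0.98 ± 0.14. Mest was 0.90 above the other iPS lines (adjusted p = 3.6e-07) and Cdkn1c 0.97 (0.00022). In the Dlk1-Dio3 cluster, whose maternal RNAs are used to grade iPS lines, Meg3 read 16.43, 16.56 and 15.85 against 16.39, 16.40 and 16.39, a difference of -0.11 ± 0.12 (adjusted p = 0.697). Rian differed by -0.02 ± 0.27 (0.979). Dlk1, the paternally expressed Notch-like ligand, was the only riser of the 5 measured, by 1.06 ± 0.20 (0.00236). In IP20D-3, by comparison, Meg3 and Rian were at 13.37 and 9.90. None of the 14 measured genes of X inactivation or the Y chromosome passed limma's test, with 9.75% of all genes called. At an unadjusted p under 0.05, 1 did. Xist differed by 0.17 (0.694) and the Y-linked Eif2s3y by 0.06 (0.958).

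**Figure D3:**
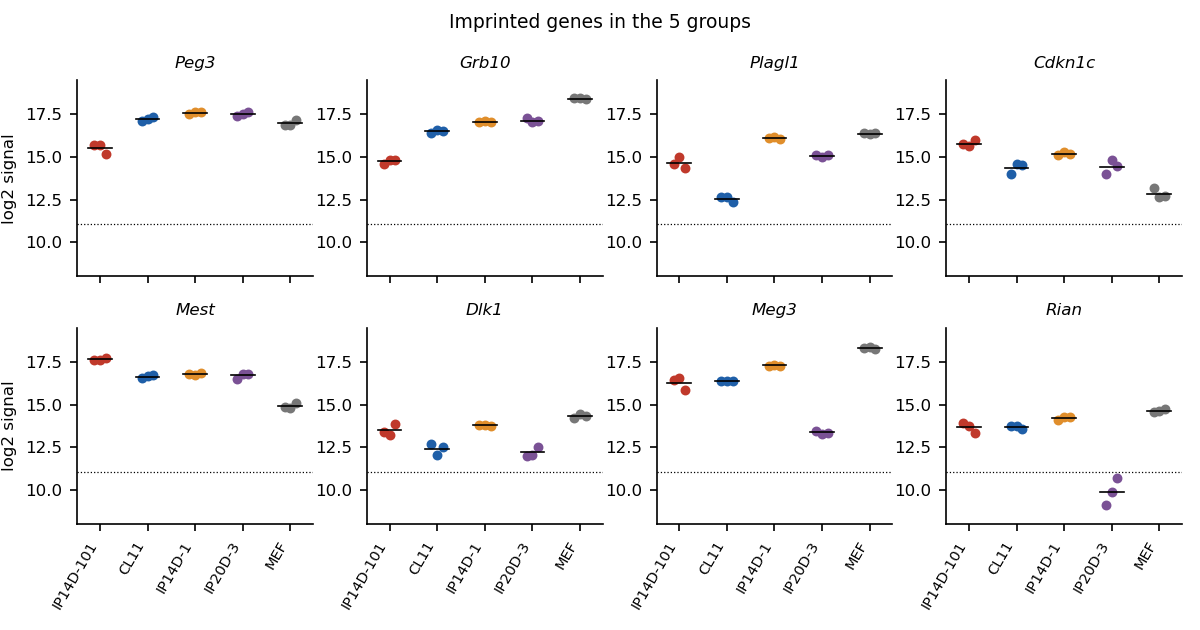
Log2 signal (y axis) of 8 imprinted genes in every array of the 5 groups, with the group mean as a bar and the background level dotted. IP14D-101 is lowest of all groups for Peg3 and Grb10, CL11 is lowest for Plagl1, and the arrays of IP14D-101 and CL11 overlap for Meg3 and Rian.

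Among 16 measured enzymes of DNA methylation and its removal, 2 rose and 5 fell (43.8%, with 9.75% of all genes called). Dnmt3l, the cofactor of the de novo methyltransferases, read 18.03, 17.69 and 18.01 against 19.08, 19.15 and 19.04, so it fell by 1.18 (SE 0.20; 2.27-fold; adjusted p = 0.00095). The glycosylase gene Mbd4 fell by 0.84 and Gadd45a, a gene of DNA damage and demethylation, by 0.76; both lie on chromosome 6, whose genes were lower as a set. Zfp57, which holds methylation at imprinted regions, fell by 0.39. Mbd3 rose by 0.39 and Uhrf2 by 0.54 in its brightest probe set, with -1.55 in another, and the adjusted p of Mbd3 was 0.054 with only the ES and iPS arrays in the fit. The count of risers was 0 without IP14D-101 replicate 3, CL11 replicate 2 or CL11 replicate 3, and 1 without replicate 1 of either line; the count that fell was 3 with arrays scaled to one median. Of 35 chromatin modifiers 2 rose and 6 fell (22.9%), by at most 0.48. The lower ones included Suz12 and Eed of Polycomb complex 2 and the demethylase genes Kdm2b, Kdm3a and Kdm6b. The call of Suz12 was lost without any 1 of the CL11 arrays or IP14D-101 replicate 3, and with arrays scaled to one median 0 of the list were lower.

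Of 17 measured genes of the primed epiblast 5 rose and 2 fell, with 5.18% of all genes higher and 4.57% lower, and the median was 0.37. Against the other iPS lines 2 were higher and 8 lower, with 14.9% of all genes higher there and 13.3% lower. Sox4, a SOX factor of progenitors, read 16.71, 16.59 and 16.56 against 16.03, 15.90 and 15.90 (0.68 ± 0.07; adjusted p = 1.2e-05) in its brightest probe set, with -0.07 to 0.76 in the others, and Tead2, a partner of YAP, rose by 0.60 (0.00074). Cldn6 rose by 0.50, Sall2 by 0.52 (adjusted p = 0.0683 with only the ES and iPS arrays) and Pim2 by 0.37. Those that fell were Fst, the activin antagonist follistatin, at least 1.84-fold, and the keratin gene Krt18, by 0.53. With only the ES and iPS arrays in the fit 7 rose and 3 fell, which added Pou3f1 (0.82, adjusted p = 0.00631) and Otx2 (0.60, 0.012), factors of the formative epiblast, and Sox3 (0.55, 0.0316). Fgf5, the classical epiblast ligand, was below background in both lines. The number of risers was 2 without IP14D-101 replicate 3, CL11 replicate 1 or CL11 replicate 2, 3 without IP14D-101 replicate 1 and 1 with no scaling.

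Genes of the FGF and ERK pathway divided. Of 21 measured 2 rose and 6 fell (38.1%, with 9.75% of all genes called), with a median of -0.03. Phlda1, an ERK-induced gene, read 14.15, 14.30 and 14.22 against 15.67, 15.54 and 15.38 and fell by 1.31 (SE 0.12; adjusted p = 1.0e-06). The receptor gene Fgfr3 fell by 1.04, the ETS factor gene Etv4 by 0.77, the phosphatase gene Dusp4 by 0.55, Ier3 by 0.54 and the adaptor gene Grb2 by 0.49 (0.03 in another probe set). The feedback inhibitor gene Spry1 rose by 1.00 ± 0.14 and the immediate early gene Egr1 by 0.87 ± 0.19. With arrays scaled to one median 2 were lower, and 3 without CL11 replicate 1 or 2; each array left out but IP14D-101 replicate 2 ended the call of Fgfr3 (adjusted p up to 0.0947). Of 28 immediate early genes 3 rose and 5 fell (28.6%). Egr1 and the RNA decay factor gene Zfp36 (0.64) were among the first and the antiproliferative gene Btg2 (-0.72) among the second. The second count was 1 with arrays scaled to one median, 3 without IP14D-101 replicate 1 and 2 without CL11 replicate 2 or 3.

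In the Wnt pathway 5 of 30 measured genes rose and 1 fell (20%, with 9.75% of all genes called), with a median of 0.25. Beside Sfrp2, the receptor gene Fzd2 read 14.10, 14.56 and 14.53 against 13.24, 13 and 12.48 (1.49 ± 0.17; adjusted p = 2.0e-05), with 1.45 and 1.28 in its other probe sets. Fzd7 rose by 0.72 and Wls, the carrier of Wnt ligands, by 1.16. Ctnnb1, beta-catenin, rose by 0.25 (adjusted p = 0.0374; 0.0583 with only the ES and iPS arrays in the fit; 0.10 and 0.07 in other probe sets). The gene that fell was Tcf7l2, a nuclear effector, by 0.86, and that call was lost with median or quantile scaling and without CL11 replicate 2, CL11 replicate 3 or IP14D-101 replicate 1. Bmp4, the ligand that acts with LIF in serum-free culture, read 14.63, 14.52 and 14.38 against 16.29, 16.43 and 16.38 and fell by 1.85 (SE 0.16; 3.61-fold; adjusted p = 8.2e-07). The other iPS lines were at 14.45 and 14.96, and IP14D-101 differed from them by -0.19 (0.369). Bmp4 was named after its values were seen, as were the other trophoblast and primitive endoderm genes given here. Of 21 trophoblast genes 4 fell and 0 rose in limma (19%), and 8 and 1 did at an unadjusted p under 0.05. The 4 were Bmp4, the transcription factor gene Tead4 (-1.46), Krt8 and Gata3, the last with both lines below background.

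Of 26 measured primitive endoderm genes, 21 were above background in at least 1 of the lines. In all, 1 rose and 3 fell (15.4%, with 9.75% of all genes called), with a median of -0.39. The count that fell was 6 with only the ES and iPS arrays in the fit and 5 without IP14D-101 replicate 3. Sparc, a matrix glycoprotein of the parietal endoderm that fibroblasts also make, read 17.15, 17 and 17.50 against 18.48, 18.37 and 18.48 and fell by 1.23 (SE 0.10; adjusted p = 5.4e-07), with -1.43 and -0.28 in other probe sets. The basement membrane collagen genes Col4a1 and Col4a2 fell by 0.62 and 0.80. The endoderm factor genes Gata6 (14.51 in IP14D-101 and 14.91 in CL11), Gata4 (13.58 and 13.90) and Sox17 (12.63 and 13.01) did not pass the test. IP14D-1 and IP20D-3 had these 3 at 11.45 or less, and IP14D-101 was above their mean by 3.57 for Gata6 (adjusted p = 1.1e-09), 2.48 for Gata4 (6.6e-05) and 2.31 for Sox17 (0.00611). IP14D-101 was also above those lines for 16 of the 26 genes and below for 2, with 14.9% of all genes higher there and 13.3% lower.

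Genes of cholesterol synthesis and uptake had the largest share of called members among the described lists. Of 24 measured, all above background, 12 rose and 1 fell (54.2%, with 9.75% of all genes called), with a median of 0.39. The enzymes of this pathway turn acetyl-CoA into sterols and are known to be switched on together by SREBP2, helped by NF-Y at CCAAT boxes. The promoters of Hmgcs1, Cyp51 and Msmo1 show what such a gene start holds; they run from 250 bases before to 50 after the RefSeq start in GRCm38.p6, 5′ to 3′ on the gene's strand, with CCAAT on either strand (ATTGG on the other) and TCACNCCAC, a sterol element searched on both strands, in capitals. Hmgcs1 was chosen after its values were seen, as the one listed gene with TCACNCCAC.
Hmgcs1 (chr13:119690101-119690400, plus strand): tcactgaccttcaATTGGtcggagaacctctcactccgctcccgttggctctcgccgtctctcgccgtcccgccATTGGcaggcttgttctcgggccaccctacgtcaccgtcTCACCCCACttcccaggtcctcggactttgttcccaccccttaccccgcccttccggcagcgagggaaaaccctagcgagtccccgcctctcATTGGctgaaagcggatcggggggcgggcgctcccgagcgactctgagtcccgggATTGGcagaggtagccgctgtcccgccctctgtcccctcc
Msmo1 (chr8:64733529-64733828, minus strand): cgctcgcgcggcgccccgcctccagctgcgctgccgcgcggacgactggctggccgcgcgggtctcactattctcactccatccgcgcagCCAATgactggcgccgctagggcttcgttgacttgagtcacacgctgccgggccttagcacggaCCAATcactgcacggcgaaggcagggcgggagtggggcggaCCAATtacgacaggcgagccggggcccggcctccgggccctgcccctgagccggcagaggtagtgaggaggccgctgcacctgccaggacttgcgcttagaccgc
Cyp51 (chr5:4104648-4104947, minus strand): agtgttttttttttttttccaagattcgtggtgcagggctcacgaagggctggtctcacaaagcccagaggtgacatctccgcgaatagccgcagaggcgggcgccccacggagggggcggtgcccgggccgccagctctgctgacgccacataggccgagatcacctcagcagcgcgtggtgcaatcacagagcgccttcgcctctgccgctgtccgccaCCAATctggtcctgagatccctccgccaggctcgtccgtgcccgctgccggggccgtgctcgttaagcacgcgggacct
Msmo1 has 3 CCAAT boxes, which begin at -160, -96 and -55 from its start, Cyp51 has 1, at -29, and Hmgcs1 has 4 and the sterol element TCACCCCAC at -137. Of the 24 genes 19 matched an entry, and 17 of them (89.5%) held CCAAT, compared with 42% of 14452 array genes and 37.4% of all 32851 windows. CCAAT was present in all 8 matched genes that rose and in 9 of the 11 matched genes that did not. TCACNCCAC was present in 1 of 19 and in 1.46% of array genes. A match is a description of letters in this window, not a measured site.

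Along the pathway, Hmgcs1, which makes HMG-CoA, read 17.94, 17.98 and 17.89 in IP14D-101 and 17.23, 17.29 and 17.13 in CL11, a rise of 0.72 ± 0.13 (1.65-fold; adjusted p = 0.00231), and its other probe sets gave 0.55 to 0.81. Of the genes that build squalene, Fdps rose by 0.60 and Fdft1 by 0.43. Of those that close and trim the sterol ring, Sqle rose by 0.68, Lss by 0.68, Cyp51 by 1.04, Msmo1 by 0.99 and Sc5d by 0.41. Msmo1, a methylsterol oxidase gene, read 16.53, 16.53 and 16.54 against 15.56, 15.57 and 15.50 (adjusted p = 1.3e-06). Dhcr7, which makes cholesterol in the last step, read 15.34, 15.46 and 15.70 against 14.29, 14.40 and 14.42, a rise of 1.13 ± 0.14 (2.19-fold; 4.3e-05). The regulator gene Insig1 rose by 0.70, and the transport genes Stard4 and Npc2 by 0.56 and 0.37. Srebf2 itself, which encodes SREBP2, differed by 0.24 (0.205). Abca1, the exporter of cholesterol, was the member that fell, by 1.04 (SE 0.12; 1.9e-05), with -0.91 and -1.07 in its other probe sets. Compared with the other iPS lines, 17 members were higher in IP14D-101 and 1 lower, with 14.9% of all genes higher there and 13.3% lower. The count of 12 was 11 with median scaling, 6 with no scaling and 8 to 11 with each array left out. The medium, which can hold serum lipids or not, is not told apart from the line.

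**Figure D4:**
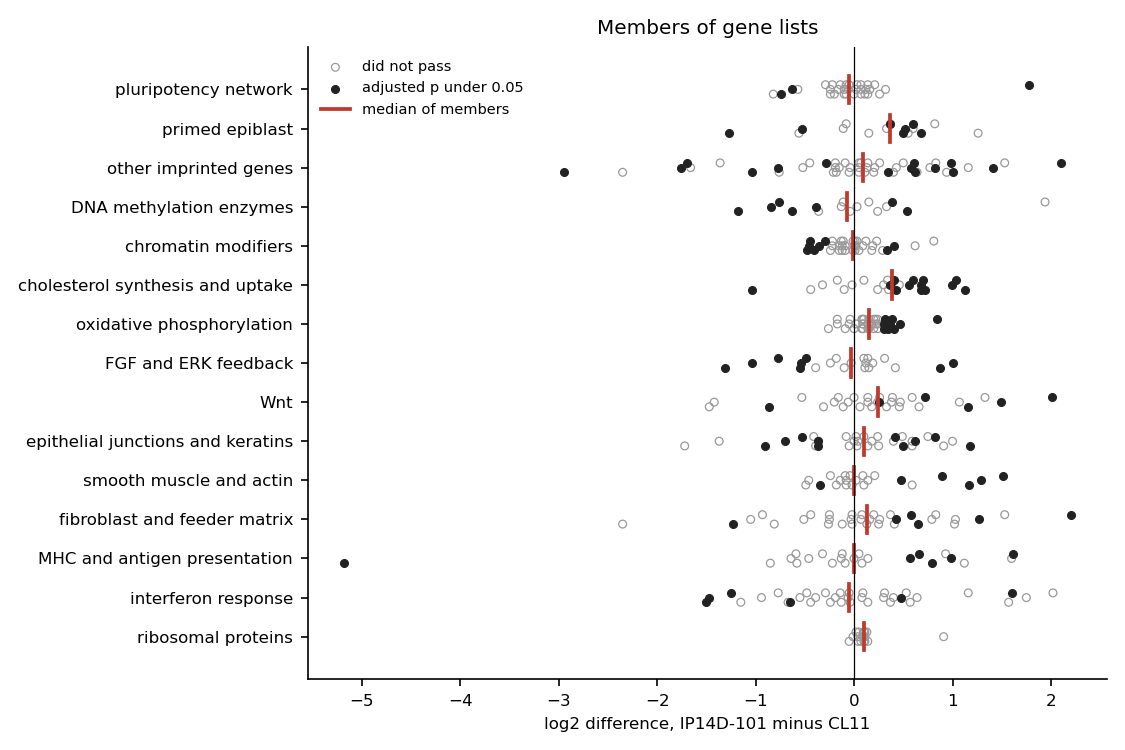
Log2 difference between IP14D-101 and CL11 (x axis) for each measured member of 15 gene lists (rows); filled points passed an adjusted p of 0.05, open points did not, and red bars mark list medians. Most cholesterol genes sit to the right of 0, with a median of 0.39, while Abca1 (-1.04), Pmvk, Scap, Mvk and Tm7sf2 are among those to the left. The ribosomal protein genes stay near 0 with no filled point.

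Of 36 measured genes of oxidative phosphorylation 9 rose and 0 fell in limma (25%, with 9.75% of all genes called), with a median of 0.15. At an unadjusted p under 0.05 the counts were 17 and 2. Nnt, the mitochondrial transhydrogenase known for an inactivating deletion in C57BL/6J mice, read 15.53, 15.75 and 15.68 against 14.96, 14.77 and 14.71, a rise of 0.84 ± 0.10 (1.79-fold; adjusted p = 3.9e-05). The other risers, among them the complex I subunit genes Ndufs8 (0.47), Ndufs7 (0.41) and Ndufb8 (0.39), rose by at most 0.47. The calls of Ndufs8, Ndufs7 and Ndufb8 were lost with no scaling and without a variance trend, that of Ndufb8 also with the 6 arrays alone, and that of Ndufs7 also there, with median scaling and without replicate 1 of either line, CL11 replicate 2 or IP14D-101 replicate 3. Other probe sets of Ndufs8 gave -0.14 to 0.45. The count was 5 without IP14D-101 replicate 3 and 1 with no scaling. Of 39 genes of the amino acid response 6 rose and 2 fell (20.5%). These included the serine synthesis genes Phgdh (0.91 ± 0.10), Psph (0.47) and Psat1 (0.40) and, lower, the glutamine transporter gene Slc1a5 (-0.71, with -0.17 in another probe set). The list had a median of -0.03, 1 was higher with no scaling, and 1 was lower without CL11 replicate 2. Of 32 glutathione and oxidative stress genes 6 rose and 3 fell (28.1%). Gclm, the modifier of glutathione synthesis, rose by 0.66 in its brightest probe set, with -0.19 in another, Gstp1 rose by 0.50, and the heme oxygenase gene Hmox1 fell by 0.69. The count of risers was 3 without IP14D-101 replicate 3 or CL11 replicate 3. Of 38 cell cycle genes 2 rose and 5 fell (18.4%), with a median of 0.05. Mycn rose by 0.52 (adjusted p = 0.00277, and 0.0798 with no scaling and 0.0508 without a variance trend). Mybl2, a regulator of S phase genes, fell by 0.60 in its brightest probe set, with -0.03 in another. With arrays scaled to one median 1 of the cell cycle genes was lower, 3 were without replicate 1 of either line and 2 without CL11 replicate 2 or 3.

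Antigen presentation genes moved in both directions. H2-Eb1, the beta chain of an MHC class II molecule, read 7.73, 7.52 and 9.36 in IP14D-101, all below background, and 13.40, 13.07 and 13.66 in CL11, at least 5.06-fold lower (adjusted p = 4.3e-05). It was at 11.60 and 11 in the other iPS lines, and its partner H2-Ea was below background in both lines. Of the class I genes H2-K1 rose by 0.98 ± 0.12 (4.2e-05; -0.03 and 0.58 in other probe sets), B2m, the light chain, by 0.57 (0.0068) and H2-D1 by 0.79 in its brightest probe set. The other probe sets of H2-D1 gave -2.24, 0.37, 0.92 and -2.83, so its direction is uncertain. In all, 5 of 23 measured rose and 1 fell (26.1%, with 9.75% of all genes called), with a median of 0.00, and 2 rose with no scaling. Of 36 interferon response genes 2 rose and 4 fell (16.7%), and 1 rose without IP14D-101 replicate 2 or 3 or CL11 replicate 1 or 2. The RNA sensor gene Ddx58 (RIG-I) read 14.26, 14.16 and 14.10 against 15.50, 15.31 and 15.46 and fell by 1.25 (SE 0.11; 6.7e-07; -0.74 and -0.35 in other probe sets), Oas1a fell by 1.5 and Xaf1 by 1.47. Of 20 genes known to vary between mouse strains 5 rose and 0 fell in limma (25%), and 6 and 2 did at an unadjusted p under 0.05. The risers included Nnt, Ahr, the dioxin receptor (1.46 ± 0.17, with 0.45 in another probe set), and Ide, the insulin-degrading enzyme (0.41, with -0.22 to 0.37 in others). Gbp2b differed most (4.41) with both lines below background. Glo1, which varies in copy number between strains, differed by 0.06 (0.764).

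Junction, muscle and matrix genes changed in part. Of 33 epithelial genes 5 rose and 5 fell (30.3%, with 9.75% of all genes called), with a median of 0.10. The claudin gene Cldn7 read 15.58, 15.36 and 15.67 against 14.36, 14.25 and 14.45 (1.18 ± 0.27; adjusted p = 0.0103), and Dsg2, a desmosomal cadherin, rose by 0.82, with -0.34 to 0.79 in other probe sets. Krt8 read 14.53, 14.43 and 14.80 against 15.50, 15.44 and 15.52 and fell by 0.90 (SE 0.14; 0.00038), and its partner Krt18 and Perp, a desmosome gene, fell with it. Cdh1 differed by 0.18 (0.674). With only the ES and iPS arrays in the fit 9 rose, among them Epcam (0.59 ± 0.08; 0.00016) and Esrp1 (0.75 ± 0.11; 0.00028); without IP14D-101 replicate 3, CL11 replicate 1 or CL11 replicate 2 the count was 2, and without IP14D-101 replicate 2 it was 3. Without CL11 replicate 3 the count that fell was 3. Of 22 smooth muscle and actin genes 5 rose and 1 fell (27.3%), and 3 rose without IP14D-101 replicate 3 or CL11 replicate 1. Acta2, smooth muscle actin, read 14.54, 14.34 and 14.63 against 13.27, 13.38 and 12.98 (1.29 ± 0.12; 2.3e-06), and Tagln rose by 1.17 ± 0.11. MEF had these genes at 19.96 and 19.43, and IP14D-101 was 0.80 and 1.65 below the other iPS lines (2.2e-05 and 2.6e-09). Of 33 fibroblast genes 5 rose and 1 fell (18.2%). The counts were 3 and 2 with no scaling, and 2 fell without IP14D-101 replicate 2 or 3 or CL11 replicate 2. Vim rose by 0.58, Bgn at least 1.71-fold and Tnc differed by 2.20 with both lines below background, while Sparc fell. The fibroblast markers given above overlapped in sum between the lines, and 7 of 9 were below background in both. The part of feeder RNA in these genes was not tested.

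Genes of 3 chromosomes were lower as sets. Over genes with both lines above background, the median difference minus that of all genes was -0.25 on chromosome 6 (512 genes), -0.19 on chromosome 14 and -0.12 on chromosome 1, and it lay between -0.02 and 0.05 on each of the other autosomes and the X. On chromosome 6, 79.3% of these genes were lower in IP14D-101, 69.2% on chromosome 14 and 64.4% on chromosome 1, compared with 39.8% to 51.0% elsewhere. Of 992 genes of chromosome 6 in all, 19 rose and 123 fell. The 3 chromosomes hold 14.8% of the genes, 32.4% of those called lower and 7.22% of those called higher, and on the others 60.9% of called genes were higher. The shift ran along each: with the genes of a chromosome in order and cut into 5 equal parts, each median was below 0, from -0.34 to -0.16 on chromosome 6, -0.26 to -0.12 on chromosome 14 and -0.15 to -0.08 on chromosome 1.

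Array by array, against the mean of the 12 ES and iPS arrays, the genes of chromosome 6 stood at 0.17, 0.18 and 0.17 in CL11 and between -0.10 and -0.03 in all 9 iPS arrays. On chromosome 14 CL11 was at 0.10 to 0.13, IP14D-101 at -0.11 to -0.07, IP20D-3 at -0.05 to -0.03 and IP14D-1 near 0.00. On chromosome 1 CL11 was at 0.05 to 0.07 and IP14D-101 at -0.09 to -0.04. With each of these arrays left out in turn, and with median, quantile or no scaling, chromosome 6 stayed between -0.26 and -0.23, chromosome 14 between -0.20 and -0.17 and chromosome 1 between -0.13 and -0.11. IP14D-101 replicate 3 stood apart on the X, at -0.21 against -0.07 in the other replicates. Emp1, A2m, Mbd4, Gadd45a and the cell cycle gene Foxm1 (-0.52, with -0.20 and -0.05 in other probe sets) lie on chromosome 6 and fell, while Stra8, Trh and Mest lie there and rose and Nanog did not pass the test. Bmp4 and Anxa8 lie on chromosome 14, and Nrp2 on chromosome 1, where Lefty1 rose. Chromosome copy number was not measured, so its part in these shifts was not tested.

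**Figure D5:**
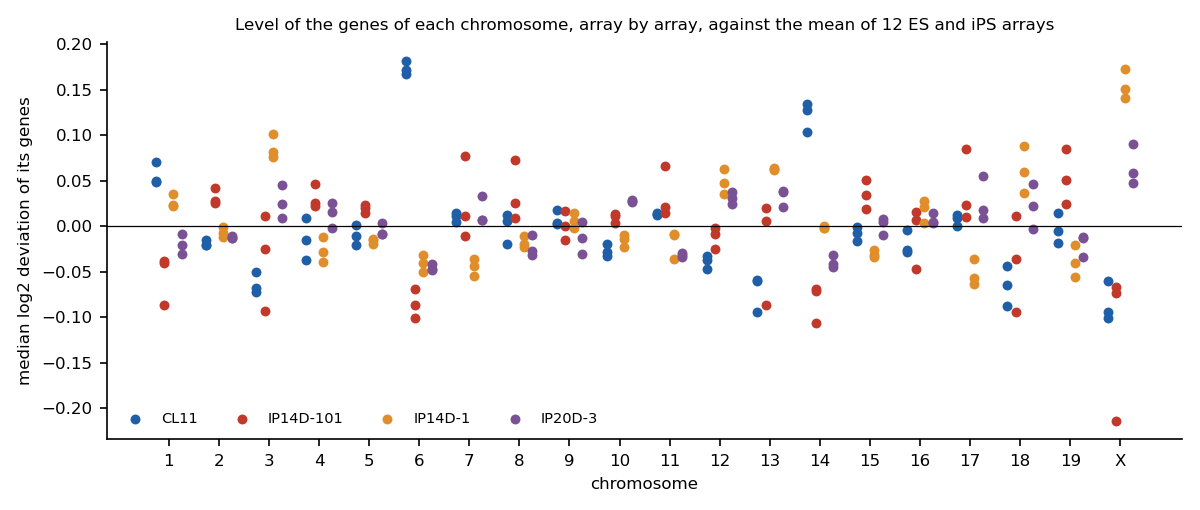
Median log2 deviation of the genes of each chromosome (x axis) in each ES and iPS array from the mean of the 12 arrays (y axis). CL11 (blue) stands above all other arrays on chromosomes 6 and 14, at 0.17 to 0.18 and 0.10 to 0.13, and IP14D-101 (red) is lowest on chromosomes 1, 6 and 14.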

How the data were processed

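Total RNA of 15 cultures was hybridised to Affymetrix arrays. The deposited values are linear signal intensities per probe set and the submitters' processing notes name MAS5 and Affymetrix's Expression Console, per the labels; no further step is given in the sources used here. Before scaling, 2% trimmed means ran from 11198.1 to 20466.0, so arrays were scaled to one trimmed mean, 16 was added and log2 taken. limma 3.58.1 in R 4.3.3 (lmFit, eBayes with a variance trend) was fitted to all 45037 non-control probe sets and 15 arrays in 5 groups, with Benjamini-Hochberg adjustment over all probe sets and a threshold of 0.05. It was tested on simulated data. The number of arrays, 3 a group, limits the precision.

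GEO's platform annotation gave 1 gene for 34945 probe sets, several for 932 and none for 9160, which were not named. Of 18193 genes 18031 matched RefSeq, which gave chromosomes and promoters.

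The genes, the comparison and the 42 gene lists were chosen with earlier results of these data known. Named genes are the 10 largest measured rises and falls without overlap, the 8 largest from or to below background, up to 4 called members of each described list (at least 5 members, or 1 in 3, called, plus 7 lists always described) and 15 genes always given; 42 predicted genes were passed over. Other genes given with their lists were chosen after their values were seen. Folds are on the log2(signal + 16) scale and understate changes of dim genes. Same-numbered replicates were not treated as pairs. Alternatives were other pseudocounts, scalings and fits, and each array left out.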

Additional observations from a re-analysis of the deposited data

Results flagged for a closer look

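For 7 named genes the difference from CL11 ran in opposite directions in IP14D-101 and in the mean of IP14D-1 and IP20D-3, each passing limma's test. The direct difference between IP14D-101 and that mean is the first of these minus the second. Its size and adjusted p therefore follow from the choice of genes and are no added support. In IP14D-101 the means of Cd99 and Fst were below background, so their fitted differences are no sizes of the change, and against CL11 they were at least 7.99-fold and 1.84-fold lower. The fitted difference from CL11 was -3.21 for Cd99, the surface glycoprotein, in IP14D-101 and 0.78 in the others, and the direct one was -3.99 (adjusted p = 4.8e-12). For the activin antagonist gene Fst they were -1.27, 1.84 and -3.10 (4.8e-09), and its call against CL11 was lost with the 6 arrays alone (0.0842). Krt18 was -0.53 and 0.76, a difference of -1.30 (9.3e-09). The imprinted gene Grb10 was -1.76 and 0.60, a difference of -2.36 (3.5e-13), and Peg3 was -1.70 and 0.33, a difference of -2.03 (3.5e-10). Gadd45a, on chromosome 6, was -0.76 and 0.26, a difference of -1.02 (7.6e-08). Gclm was 0.66 and -0.33, a difference of 0.99 (1.1e-07), in its brightest probe set. The mean hides differences between its lines. In limma against CL11, IP20D-3 did not pass for Peg3 (0.29, adjusted p = 0.115), Gadd45a (0.20, 0.187) and Gclm (-0.25, 0.0805). IP14D-1 did, at 0.36 (0.0395), 0.32 (0.0232) and -0.41 (0.00438). For Fst IP14D-1 differed from CL11 by 2.84 and IP20D-3 by 0.83. The comparisons share arrays, and the other iPS lines are of the background of CL11, so line and background cannot be told apart.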

How the results depend on the processing

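The counts of changed probe sets and genes stayed within 1.5 times of 3234, 1773, 942 (higher) and 831 (lower) under pseudocounts of 64 and 1000, quantile normalization, a filter on low values and the fit to the ES and iPS arrays (3281, 1816, 949 and 867, of which 1615 genes were shared). With median scaling 399 genes were lower. With no scaling 1134 genes changed and 225 were higher. Without a variance trend 1704 probe sets and 902 genes changed, 439 higher and 463 lower. Fitted to the 6 arrays of the comparison alone, 1945 probe sets and 1144 genes changed, 576 of them higher. With each of these 6 arrays left out, the counts ran from 2017 to 3501 probe sets, 1140 to 1707 genes, 611 to 858 higher and 529 to 849 lower, each lowest without CL11 replicate 2; against the other iPS lines, with each IP14D-101, IP14D-1 or IP20D-3 array left out, the count ran from 4074 (without IP14D-101 replicate 3) to 4896 genes. Same-numbered replicates did not deviate together (correlations of 0.0082, 0.0066 and -0.0019), and a replicate block gave 3116 probe sets and 1700 genes, 902 higher and 798 lower, and 5034 against the other iPS lines. Of 105 called named genes 0 changed sign in the settings run. That count is no support, since most were chosen for their differences in these data. Also, fits without a variance trend, with fewer groups or with a replicate block leave the difference unchanged. Of the 105, 68 kept their call in all settings that keep every array of the comparison and 90 without each array. The others lost it with no variance trend (20), no scaling (18), the 6 arrays alone (17), median scaling (10), the ES and iPS arrays (6) or another setting that keeps every array (at most 3). Calls were also lost without CL11 replicate 2 (14), IP14D-101 replicate 1 or 3 (8 each), CL11 replicate 1 or 3 (7 each) or IP14D-101 replicate 2 (2). Without a variance trend the calls lost included Cldn7, Dsg2, Egr1, Foxm1, Fxyd6, Suz12, Tet2 and Zfp42, with no scaling Dsg2, Gstp1, Tead2 and Zfp36, with the 6 arrays alone Bgn, Rab25, Suz12, Tcf7l2, Tnc, Usp29 and Wls, and with median scaling Foxm1, Kdm2b, Kdm6b, Suz12 and Tet2. Signal near background limits the dim genes.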
